A study of Mus musculus with 28 samples.

Results

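The region described here is a 2.4 Mb stretch near the distal end of mouse chromosome 4, from 144900001 to 147300000 in build mm9, that lies in a cluster of zinc finger genes. It was selected on the width and score of SIRT7 peaks in the GS list, since 5 of the longest peaks with that list's top score lie in it. Its members are 240 windows of 10 kb, of 265479 such windows in all. The position, number, width and score of the GS peaks are therefore given as a description. The NT peak list and the chromatin states were not used by that choice, although their values were known when it was made.

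ChIP-seq was run on MEFs, fibroblasts cultured from mouse embryos, here of strain 129s2, embryonic day 14.5 and passages 3 to 4 by the labels. Cells were SirT7-/- (called KO here) or wild type (WT), and each genotype was labelled GS or NT, abbreviations that the labels do not expand, in a series whose title speaks of glucose starvation. SIRT7 was precipitated in WT cells alone, with 2 libraries each for GS and NT and 2 single-end input libraries each. The histone mark H3K27me3 and the histone variant macroH2A1.1 were precipitated in all 4 conditions, KO-GS, KO-NT, WT-GS and WT-NT, with 2 libraries of each per condition and 1 paired-end input library. The deposited results used here are 1 list of SIRT7 peaks per treatment and 1 chromatin segmentation per condition, and each stands for both replicates. No value below therefore has a replicate error, none was tested, and the sequencing depth behind the values is unknown. No SIRT7 ChIP from KO cells was used here, so signal that does not depend on SIRT7 cannot be told apart from binding. The cells are of strain 129s2 while mm9 is the genome of C57BL/6J, and differences between the strains in this region were not tested.

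Clusters of this kind hold many genes for proteins that pair a KRAB domain with an array of zinc fingers. The fingers bind DNA, many of them in the remains of transposable elements, and the KRAB domain recruits the corepressor TRIM28 and, through it, enzymes that silence chromatin. Such genes multiplied by local duplication, so neighbours often share long stretches of near-identical sequence. SIRT7, a sirtuin, removes acyl groups from lysines of nuclear proteins and uses NAD to do so. H3K27me3 is the repressive mark of Polycomb repressive complex 2, and macroH2A1.1 is the splice form of a large histone variant whose macro domain binds ADP-ribose.

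Genes could not be placed on the windows, because the annotation at hand is of another build. In gene order alone, RefSeq's table for GRCm38.p6 lists 89 genes between Tnfrsf1b, a receptor for tumour necrosis factor, and Nppb, which encodes B-type natriuretic peptide. The bounds are broader than the cluster and need not match the ends of the region. Of these genes 25 are protein coding, and 16 of the 25 carry a Zfp symbol: Zfp990, Zfp980, Zfp987, Zfp600, Zfp992, Zfp981, Zfp993, Zfp978, Zfp991, Zfp988, Zfp982, Zfp985, Zfp979, Zfp534, Zfp984 and Zfp933. Another 56 are pseudogenes, 6 of them of the vomeronasal receptor family Vmn2r. From the first to the last Zfp symbol there are 18 coding genes, so only 2 of that run are not named Zfp. All of chromosome 4 has 27 coding Zfp genes in the table. Among the other coding genes of the interval are Fv1, a retrovirus restriction factor derived from a retroviral gag gene, and Mfn2, which encodes the mitochondrial fusion protein mitofusin.

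How alike the cluster's genes are can be read from their promoters, taken as 250 bases before and 50 bases after a start of the gene. The GRCm38.p6 promoter sequences at hand held 15 promoters for 12 of the 16 Zfp genes. Some genes had several, which differed in likeness: for Zfp982 the highest identities to another gene included 89% and 66.3%. In 9 of these 15 (60%), the promoter was at least 80% identical to that of another gene on chromosome 4, against 132 of 2038 (6.48%) for the other promoters of that chromosome. Across the 101 pairs of promoters from different Zfp genes of the interval the identity ranged from 38.7% to 94.7% with a median of 47%, and 15 pairs reached 80%. The level for pairs of unrelated promoters was not computed, so the median of 47% is not read here as likeness. The highest identity to any other gene's promoter on chromosome 4 was 99.3%, for Zfp600. Within the Zfp genes of the interval the most alike pair, printed here as the closest example among them, was that of Zfp600, on the plus strand, and Zfp979, on the minus strand. It was chosen after the identities were seen. Each is printed 5′ to 3′ from RefSeq's GRCm38.p6 sequences, and capitals mark the bases at which the alignment of the pair differs.

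Zfp600: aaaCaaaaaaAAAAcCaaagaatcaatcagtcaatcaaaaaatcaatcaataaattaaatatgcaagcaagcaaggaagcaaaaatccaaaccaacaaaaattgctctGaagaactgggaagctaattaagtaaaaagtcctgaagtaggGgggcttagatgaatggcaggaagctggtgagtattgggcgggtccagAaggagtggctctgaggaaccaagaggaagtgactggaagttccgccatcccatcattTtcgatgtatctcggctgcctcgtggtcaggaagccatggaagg

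Zfp979: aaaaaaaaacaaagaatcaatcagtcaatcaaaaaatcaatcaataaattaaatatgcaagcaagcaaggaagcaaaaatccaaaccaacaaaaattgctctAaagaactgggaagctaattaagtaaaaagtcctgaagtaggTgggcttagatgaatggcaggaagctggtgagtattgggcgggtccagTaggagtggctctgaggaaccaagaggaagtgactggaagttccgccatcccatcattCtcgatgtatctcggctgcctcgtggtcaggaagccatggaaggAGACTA

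Over 300 bases the pair differed by 16 edits, of which 4 were substitutions and 12 were gap bases, an identity of 94.7%. Long unbroken runs of lower-case letters are identical in both genes. The sources used here do not state how reads with several matches were handled in the peak lists and segmentations, and the part of such reads in the values was not tested. Sequence under the peaks themselves is not shown, since no mm9 genome was at hand.

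The GS list held 9 peaks in the region and the NT list 4. The 9 GS peaks covered 59.96 kb, or 2.50% of the region, and the 4 NT peaks covered 20.222 kb, or 0.843%. Each list's score is the authors' own whole number, which ends at 1000, and serves here to rank peaks within a list only. The GS and NT scores cannot be set against each other.

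In the GS list, numbered along the chromosome, peak 1 ran from 145118642 to 145123067, a width of 4426 bp, with the top score of 1000. Peak 2 ran from 145123069 to 145131781, was 8713 bp wide and scored 744. Peak 3, the narrowest of the 9, ran from 145204738 to 145208524, was 3787 bp wide and had the lowest score of the group, 599. These 3 form the proximal group: peaks 1 and 2 were listed apart although a single base lies between them (a gap of 1 bp), and peak 3 followed after 72.956 kb.

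Peak 4, from 146084454 to 146088746, was 4293 bp wide and scored 1000. Peak 5, from 146356735 to 146364338, was 7604 bp wide and scored 637. Peak 6, from 146696350 to 146702788, was 6439 bp wide and scored 1000. They stood alone, with gaps of 875.929 kb before peak 4, 267.988 kb before peak 5 and 332.011 kb before peak 6.

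Peak 7, from 146883556 to 146895342, was the widest at 11787 bp and scored 646. Peak 8, from 146948711 to 146953496, was 4786 bp wide and scored 1000. Peak 9, from 146953680 to 146961804, was 8125 bp wide and scored 1000. These 3 form the distal group, with 180.767 kb before peak 7, 53.368 kb between peaks 7 and 8, and 183 bp between peaks 8 and 9.

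Width and score had no single order among the 9, and both were used to choose the region, so this is description only. The widest, peak 7, ranked 1151st by score of the 2671 GS peaks, while the narrower peaks 1, 4 and 8 all carried the top score. Peaks 6 and 9, of 6439 and 8125 bp, carried it too, and the narrowest, peak 3, had the lowest score. Peak 5 ranked 1241st, peak 2 ranked 446th and peak 3 ranked 1693rd. So 5 of the 9 held the top score and the other 4 scored between 599 and 744.

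**Figure D1:**
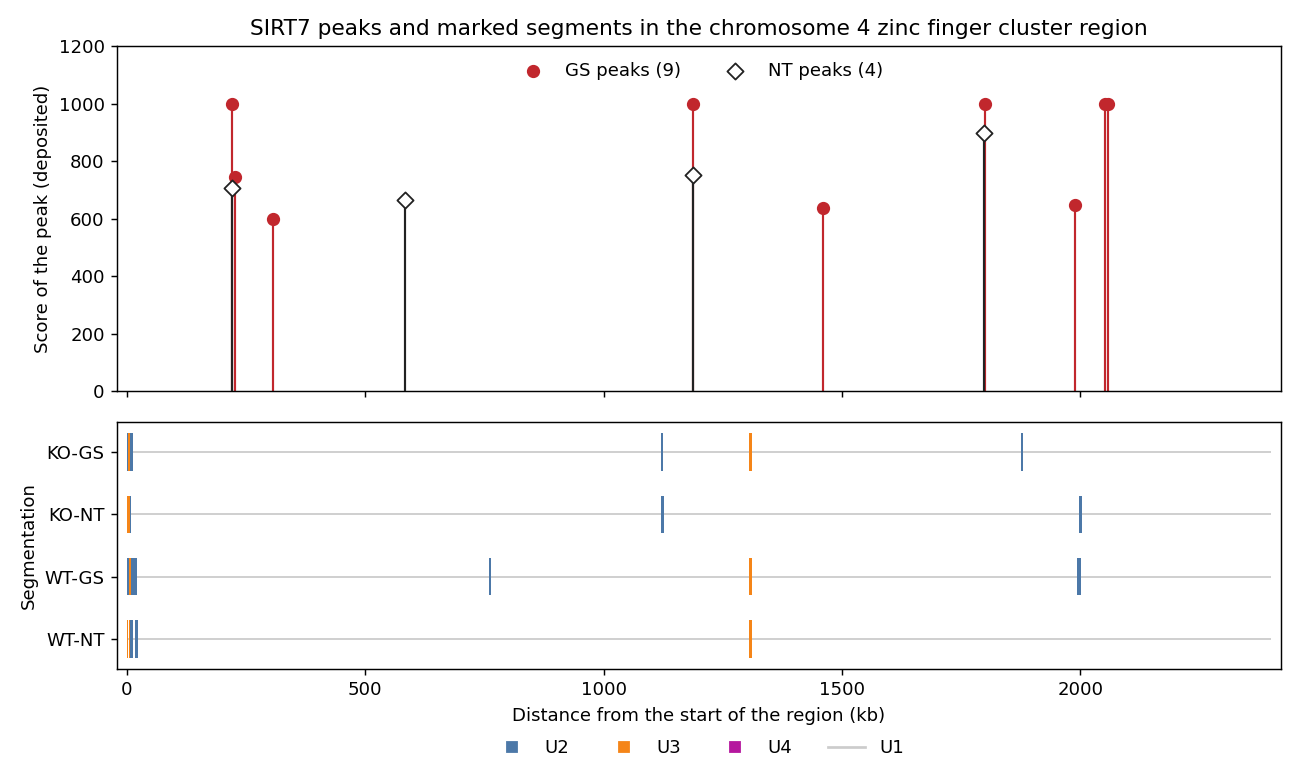
Top, score of each SIRT7 peak (deposited value, no unit) against its distance from the start of the region in kb, with circles for the 9 GS peaks and diamonds for the 4 NT peaks. Bottom, the chromatin state along the region in each segmentation, where marked segments beyond the first 30 kb are drawn at least 6 kb wide to be visible; 3 of the 4 NT peaks sit on a GS peak of score 1000, and colour is almost absent beyond the first bins.

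The region's GS peaks were long beside the rest of the list. Their median width was 6439 bp (mean 6662, SD 2644 over the 9 peaks), against 984 bp over the 126 GS peaks on the rest of chromosome 4, 1173 bp over the 2263 on the rest of the autosomes and 1596.5 bp over the 396 on the X chromosome. No other GS peak of chromosome 4 exceeded 4270 bp or scored above 961. All 9 of the region were among the 129 GS peaks of at least 3787 bp, the width of its narrowest (4.83% of the list), and 70 of those 129 lay on the X chromosome. Among autosomal GS peaks, peaks 7, 2, 9, 5 and 6 were the 5 widest. The score of 1000 was held by 26 GS peaks, or 0.973% of the list. The 17 autosomal ones outside the region were 260 to 2878 bp wide with a median of 922 bp. These contrasts are what put the region forward, so they describe it and support nothing further.

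GS peaks were distant on both sides of the region. The nearest before the region, from 143041002 to 143041769, was 768 bp wide, scored 961 and lay 2076.87 kb before peak 1. The nearest after it, from 151246426 to 151247227, was 802 bp wide, scored 635 and lay 4284.62 kb after peak 9. The 2.4 Mb before the region held 1 GS peak and the 2.4 Mb after it held 0.

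**Figure D2:**
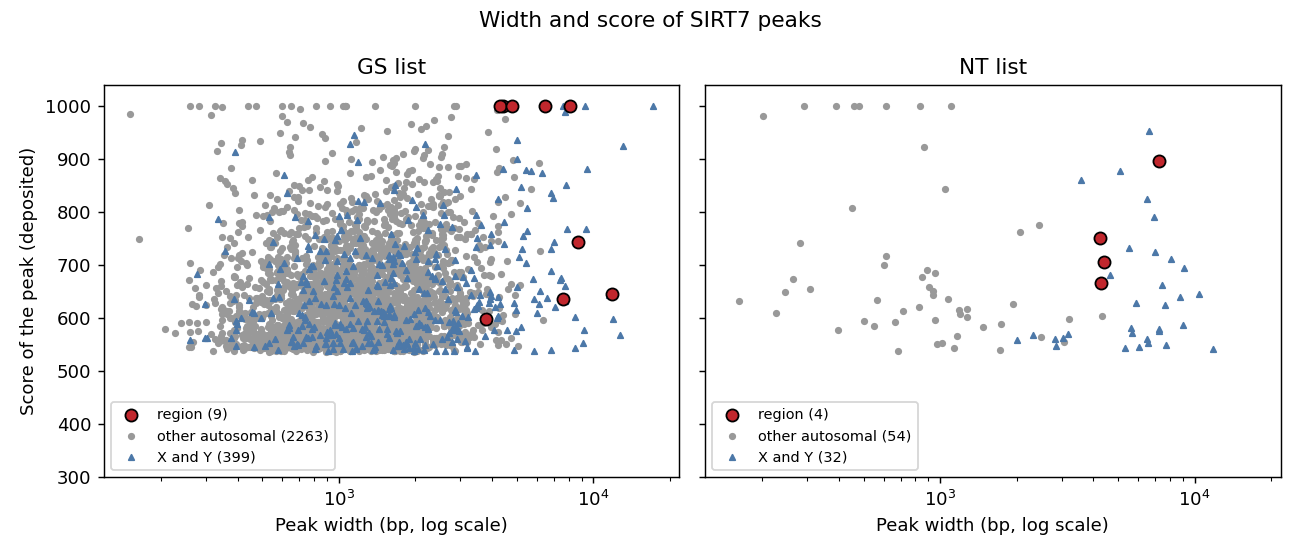
Score (deposited value, no unit) against width in bp on a log axis for every peak of the GS list (left) and the NT list (right), with the region's peaks picked out. The 9 GS peaks of the region lie at widths of 3787 to 11787 bp and the 4 NT peaks at 4265 to 7269 bp, at the wide end of the autosomal peaks of each list.

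By windows, 7 of the 240 (2.92%) held the midpoint of a GS peak, against 0.965% of all 10 kb windows of the genome, and 14 held at least 1 base of one. The windows with the most GS midpoints, 2 each, were 145120001 to 145130000 and 146950001 to 146960000, which hold the close pairs of peaks 1 and 2 and of peaks 8 and 9. The longest run of windows without a GS midpoint was 87 windows, or 870 kb, from 145210001 to 146080000. Runs of 34 windows from 146960001 to the end of the region and of 32 windows from 146370001 to 146690000 came next. Peaks 1 to 3 and peaks 7 to 9 thus lay closer together than peaks 4 to 6, with a long empty stretch between peaks 3 and 4. Neither group reached an end of the region, as peak 1 started 218.641 kb after its start. The median gap between neighbours was 126.862 kb. Of the 8 gaps 2 were of at most 200 bp, a distance found between 44 of 2650 neighbouring GS peaks of the genome (1.66%).

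The NT list, with 90 peaks in all, was not used to choose the region. NT peak 1 ran from 145118639 to 145123056, was 4418 bp wide and scored 706, 26th in its list. NT peak 2 ran from 145481540 to 145485809, was 4270 bp wide and scored 666, 35th. NT peak 3 ran from 146084439 to 146088703, was 4265 bp wide and scored 752, 20th. NT peak 4 ran from 146694936 to 146702204, was 7269 bp wide and scored 897, 11th. All 4 were in the upper part of the NT list by score, and none had the close partner that GS peaks 1 and 8 had. Gaps between them were 358.483, 598.629 and 606.232 kb.

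NT peaks were denser and wider in the region than elsewhere on the autosomes, which is given as description. Of the 4, 3 overlapped a GS peak of score 1000, the kind by which the region was chosen. Their number and width are therefore not independent of that choice. The 4 amounted to 1.67 per Mb, against 0.0261 per Mb on the rest of chromosome 4, where 4 NT peaks lay, and 0.0219 per Mb on the rest of the autosomes, where 54 lay. Of the 240 windows 4 held an NT midpoint, against 0.0331% of all windows of the genome. Their median width was 4344 bp (mean 5056, SD 1477 over the 4 peaks), against 907.5 bp on the rest of chromosome 4 and 896.5 bp on the rest of the autosomes. Only 5 autosomal NT peaks were at least 4265 bp wide, the width of the narrowest of these 4. All 4 thus passed that limit by construction. The remaining autosomal peak, of 4316 bp, was wider than NT peaks 2 and 3. On chromosome 15 an NT peak just under the limit covered 4.26 kb. Another 25 NT peaks of at least 4265 bp lay on the X chromosome, where the median was 6485.5 bp. The equal stretches before and after the region held 0 NT peaks each, and the nearest before it lay 13816.6 kb from NT peak 1.

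A GS peak overlapped 3 of the 4 NT peaks (75%, Wilson 95% interval 30.1% to 95.4%, counting error only), against 37.8% of all NT peaks and 55.2% of those on autosomes. Seen from the GS list, 3 of its 9 peaks overlapped an NT peak (33.3%, Wilson 95% interval 12.1% to 64.6%), against 1.27% of all GS peaks. The region was chosen by its wide, top-score GS peaks, and the 3 that overlapped all had the top score. Both contrasts therefore only describe the region. GS peak 1 and NT peak 1 shared 4415 bp, 99.8% of the GS and 99.9% of the NT width, with starts 3 bp and ends 11 bp apart. GS peak 4 and NT peak 3 shared 4250 bp, 99.0% and 99.6%, with starts 15 bp and ends 43 bp apart. In both pairs the same stretch was thus listed under both treatments almost to the base. GS peak 6 and NT peak 4 shared 5855 bp, 90.9% and 80.5%, and here the GS peak started 1414 bp and ended 584 bp farther along.

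The 3 shared GS peaks all had the top score of 1000. Of the 6 GS peaks with no NT partner, peaks 8 and 9 had it too, and peaks 2, 3, 5 and 7 scored 599 to 744. NT peak 2 had no GS partner, and the nearest GS midpoint lay 277.044 kb away. The 13 peaks of both lists thus marked 10 separate positions. Whether a position listed under 1 treatment alone differed in SIRT7 signal cannot be said from the lists, which give no value where no peak was called.

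Set against the other 994 autosomal stretches of 2.4 Mb laid in step with the region beyond the first 3 Mb of each chromosome, its 9 GS peaks were matched or passed by 20 and its covered length of 59.96 kb was passed by 1, with 95.86 kb. The medians over the others were 2 peaks and 2.17 kb. For the NT list no other autosomal stretch reached 4 peaks: 946 had none, 45 had 1 and 3 had more, with 3 as the highest number. The NT covered length of 20.222 kb compared with at most 5.526 kb in the other autosomal stretches. These ranks only describe the region, since it was chosen by its GS peaks and 3 of its 4 NT peaks overlapped 1 of them. The X chromosome, which held 32 NT peaks covering 198.054 kb, was not divided into such stretches.

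**Figure D3:**
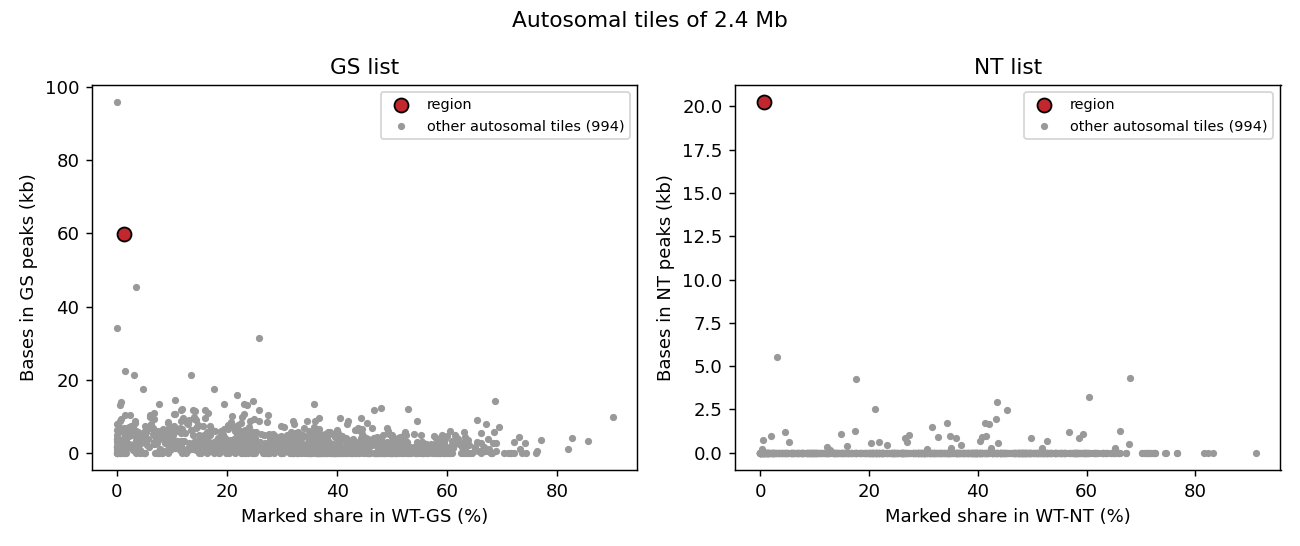
Length covered by GS peaks (left) and NT peaks (right), in kb, against the share of bins marked in WT-GS (left) and WT-NT (right), in percent, for autosomal stretches of 2.4 Mb; the region is picked out. The region lies at 59.96 kb for GS and 20.222 kb for NT, near the left edge of both plots where few bins are marked.

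The segmentations, made from H3K27me3 and macroH2A1.1 libraries and not from SIRT7, assign each 200 bp bin to 1 of 4 states, U1 to U4. The sources used here do not state what each state stands for. U1 is the most frequent state and also fills the first 3 Mb of chromosome 4 in all 4 segmentations, so it includes sequence in which no signal could be read. Bins in U2, U3 or U4 are called marked below.

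The region was almost wholly U1. The marked share was 0.775% in KO-GS (18.6 kb, Wilson 95% interval 0.633% to 0.948%), against 27.3% of bins over the genome. It was 0.55% in KO-NT (13.2 kb, 0.433% to 0.699%), against 26.5%. It was 1.33% in WT-GS (31.8 kb, 1.14% to 1.55%), against 29.9%, and 0.767% in WT-NT (18.4 kb, 0.626% to 0.939%), against 29.5%. Neighbouring bins are not independent, so these intervals cover counting error only and are too narrow. Bins in U1 in all 4 segmentations made up 98.3% of the region and 64.6% of the genome.

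Of the other 994 autosomal stretches of equal length, 49 had a marked share as low or lower in KO-GS, 35 in KO-NT, 47 in WT-GS and 40 in WT-NT, and the median over those stretches was 28.3%, 26.7%, 32.1% and 31.6%. The low share was thus uncommon and not peculiar to the region. Both neighbouring stretches had more: the 2.4 Mb before were marked over 13.1% in KO-GS, 9.33% in KO-NT, 12.9% in WT-GS and 12.9% in WT-NT. The 2.4 Mb after were marked over 43.3%, 37.9%, 42.5% and 41.6% in the same order.

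Most marked bins of the region lay at its very start. In KO-GS a marked run covered 144900001 to 144912000, and in KO-NT one covered 144900001 to 144909600. In WT-GS a run covered 144900001 to 144921200. In WT-NT there were 3 runs, 144900001 to 144901600, 144903401 to 144913200 and 144917001 to 144923600. The first 100 kb held 12 kb of marked bins in KO-GS, 9.6 kb in KO-NT, 21.2 kb in WT-GS and 18 kb in WT-NT. This edge therefore reached farther into the region in both WT segmentations than in either KO one, by the position of its last bin. The last 100 kb held 0 kb in each, and the first marked bin past the region lay 27.4 kb after its end in KO-GS, 31.6 kb in KO-NT and 31.4 kb in both WT segmentations.

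**Figure D4:**
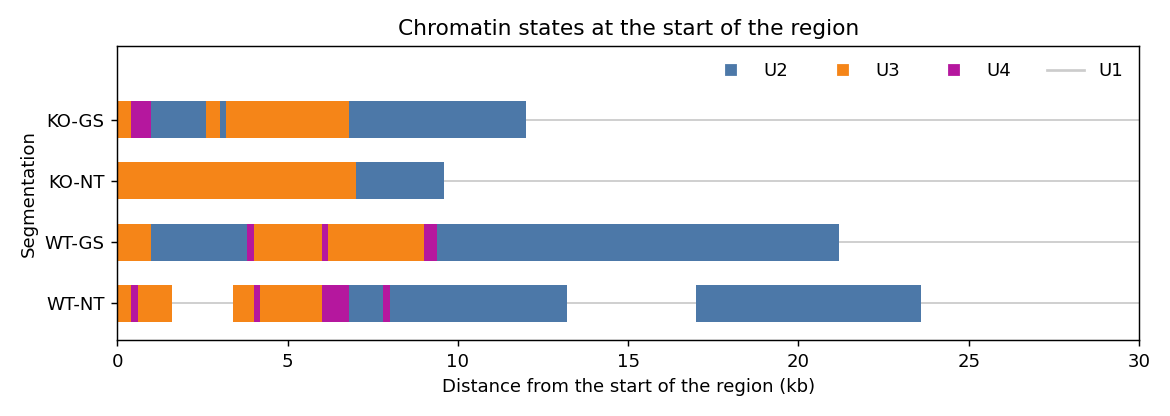
Chromatin state in 200 bp bins over the first 30 kb of the region (distance from its start in kb) in the 4 segmentations, with U2, U3 and U4 coloured and U1 as a thin line. Marked bins end by 12 kb from the start in the KO segmentations and run past 20 kb in the WT ones.

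Beyond the first 100 kb there were 3 marked runs in KO-GS, 2 in KO-NT, 3 in WT-GS and 1 in WT-NT. In KO-GS they were a U2 run of 3.6 kb from 146020801 to 146024400, a U3 run of 0.4 kb from 146207201 to 146207600 and a U2 run of 2.6 kb from 146776401 to 146779000. In KO-NT they were U2 runs of 1.8 kb from 146022601 to 146024400 and of 1.8 kb from 146899201 to 146901000. In WT-GS they were a U2 run of 1.4 kb from 145661001 to 145662400, the same U3 bins as in KO-GS and a U2 run of 8.8 kb from 146892601 to 146901400. WT-NT had those U3 bins alone. The bins from 146207201 to 146207600 were thus U3 in 3 segmentations, and a run ending at 146024400 was found in both KO segmentations and in neither WT one.

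In WT-NT the U1 stretches on either side of those bins were 1283.6 kb, from 144923601 to 146207200, and 1123.8 kb, from 146207601 to 147331400, where the median U1 stretch of the genome was 11 kb. The first ranked 149th of 36346 by length. It held 4 GS and 3 NT peaks, and the second held 5 GS peaks and 1 NT peak. The longest U1 stretch touching the region was 1108.8 kb in KO-GS, 1113 kb in KO-NT and 739.8 kb in WT-GS, with medians over the genome of 10.4, 10.2 and 10.8 kb.

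By windows, 5 of the 240 held a marked bin in KO-GS, 4 in KO-NT, 7 in WT-GS and 4 in WT-NT, against 38.5%, 37.5%, 40.7% and 39.9% of the genome's windows. Together 9 windows were marked in any segmentation, 1 was marked in all 4 and 231 in none. Only 1 of the marked windows also held bases of a GS peak, that from 146890001 to 146900000.

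All 9 GS peaks and all 4 NT peaks lay in U1 by most of their bases in all 4 segmentations. Since 98.3% of the region's bins were U1 in all 4, this follows the region's own share and is no separate trait of the peaks. Over the whole GS list the share in U1 was 89.3% in KO-GS, 86.5% in KO-NT, 86.8% in WT-GS and 88.5% in WT-NT. Over the whole NT list it was 86.7%, 85.6%, 86.7% and 88.9% in the same order, so U1 is where most peaks of either list lie. All but 1 of the 13 peaks had every base in U1 in all 4 segmentations. The exception was GS peak 7, of which 2742 bp lay in the 8.8 kb U2 run of WT-GS. Around the same place KO-NT had its 1.8 kb run, 3.858 kb from the end of the peak, and KO-GS and WT-NT had none.

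The region's peaks were far from marked bins, as any position in so sparsely marked a region would mostly be. The distances below therefore restate the low marked share and are not a second trait of the peaks. Between a GS peak of the region and the closest marked bin there were, as the median, 169.71 kb in KO-GS, 196.412 kb in KO-NT, 149.134 kb in WT-GS and 281.137 kb in WT-NT. Over all GS peaks it was 49.417, 52.8575, 43.804 and 51.837 kb. For the NT peaks of the region it was 140.417, 203.017, 182.793 and 341.187 kb, against 81.522, 105.325, 112.834 and 86.463 kb over all NT peaks.

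Between GS and NT few bins of the region differed in state in either genotype. In WT cells 23 kb of the region (0.958% of bins, Wilson 95% interval 0.799% to 1.15%) differed in state between GS and NT, against 9.54% over the genome. Of this 15.8 kb was marked in WT-GS alone, 2.4 kb in WT-NT alone and 4.8 kb in both in different states, and over the genome the first kind made up 3.51% and the second 3.11% of bins. In KO cells 11.6 kb (0.483%) differed, against 11.2% over the genome, with 7.2 kb marked in KO-GS alone and 1.8 kb in KO-NT alone, kinds that made up 4.56% and 3.77% of the genome. In both genotypes more of the region was marked in GS alone than in NT alone.

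The windows behind these sums were few. Between WT-GS and WT-NT the largest gain was in the window from 146890001, 74% of whose bins were marked in WT-GS and 0% in WT-NT, and the largest loss in the window from 144920001, with 12% and 36%. Between KO-GS and KO-NT the largest gain was in the window from 146770001, with 26% in KO-GS and 0% in KO-NT, and the largest loss in that from 146900001, with 0% and 10%. The window with the largest gain thus lay elsewhere in each genotype.

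Between genotypes, 30.2 kb (1.26% of bins) differed in state in GS cells, against 10.1% over the genome. Of this 6.2 kb was marked in KO-GS alone and 19.4 kb in WT-GS alone, kinds that made up 2.37% and 4.94% of the genome. In NT cells 17.6 kb (0.733%) differed, against 11.4%, with 5.4 kb marked in KO-NT alone and 10.6 kb in WT-NT alone, against 2.81% and 5.76%. The largest gain in KO was in both treatments in the window from 146020001, with 36% of bins in KO-GS and 0% in WT-GS, and with 18% in KO-NT and 0% in WT-NT. The largest loss in KO was in both in the window from 144910001, with 20% in KO-GS and 100% in WT-GS, and with 0% in KO-NT and 62% in WT-NT. Both KO segmentations thus had marked bins in the window from 146020001 that neither WT one had, and shorter marking at the region's start.

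That start decided the direction in NT cells. Over the whole region 5.2 kb fewer bins were marked in KO-NT than in WT-NT (a difference of -5.2 kb), but without the first and last 100 kb KO-NT had 3.2 kb more. The other differences kept their sign: KO-GS minus WT-GS was -13.2 kb over the whole region and -4 kb without its ends, WT-GS minus WT-NT was 13.4 and 10.2 kb, and KO-GS minus KO-NT was 5.4 and 3 kb.

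Bins of the region marked in either segmentation of a pair were marked in both in 46.8% for WT-GS and WT-NT (genome 79.9%), 55.9% for KO-GS and KO-NT (73.2%), 32.6% for KO-GS and WT-GS (77.3%) and 32.8% for KO-NT and WT-NT (73.5%). Some of these shared bins were in different states. Of the 171 bins marked in WT-GS or WT-NT 67.3% differed in state, unmarked in the other segmentation included, against 28.9% over the genome. The share was 56.9% of 102 bins for KO-GS against KO-NT (genome 35.9%), 79.5% of 190 bins for KO-GS against WT-GS (31.2%) and 73.9% of 119 bins for KO-NT against WT-NT (35.4%). These shares rest on the few runs named above.

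**Figure D5:**
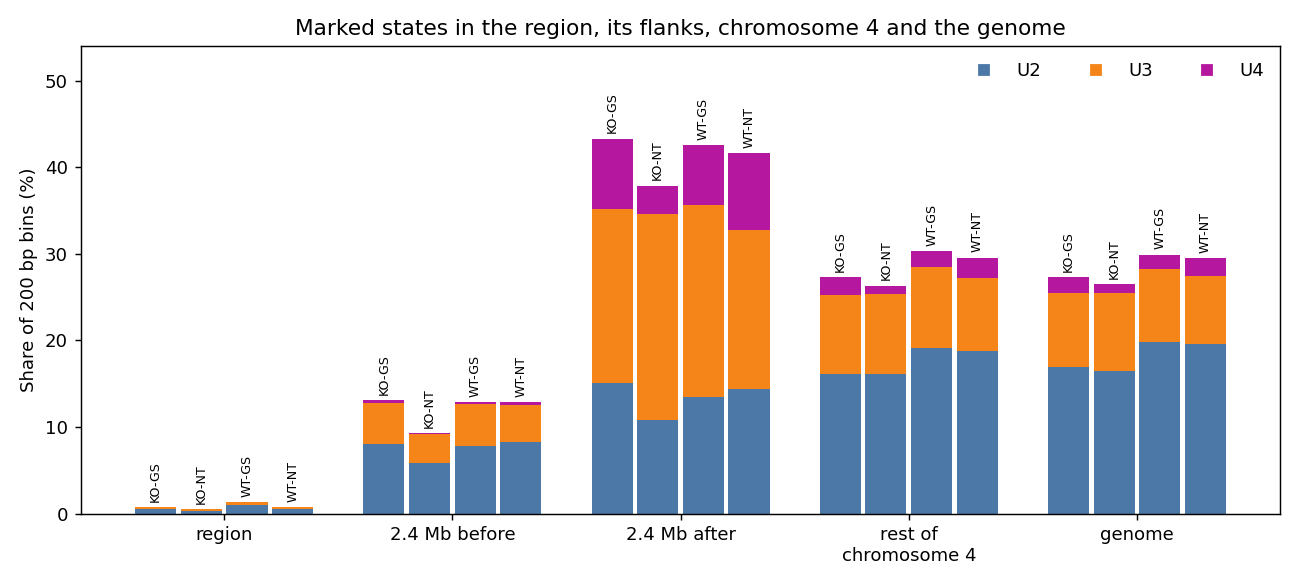
Share of 200 bp bins in U2, U3 and U4, in percent, in each segmentation, for the region and for the sequence it is compared with. Every region bar is at or below 1.33% in all, while the genome lies between 26.5% and 29.9%.

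U2 made up most of the region's marking in 3 segmentations, as it did over the genome in all 4. Over the genome U2 covered 17.0% of bins in KO-GS, 16.4% in KO-NT, 19.8% in WT-GS and 19.6% in WT-NT, of the marked shares given above. In the region it covered 13.2 kb in KO-GS, 6.2 kb in KO-NT, 24.8 kb in WT-GS and 12.8 kb in WT-NT. U3 covered 4.8, 7, 6.2 and 4.2 kb in the same order, so in KO-NT it covered more than U2. U4 covered 0.6 kb in KO-GS, 0 kb in KO-NT, 0.8 kb in WT-GS and 1.4 kb in WT-NT.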

How the data were processed

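Per the labels, each SIRT7 peak list belongs to both WT replicates of a treatment and each segmentation to both replicates of H3K27me3 and mH2A1 (macroH2A1.1) in a condition. Named without a role in the submitters' processing notes are the tools MACS 1.4.2, Bowtie, deepTools 2.4.2, SAMtools 0.1.19, Trimmomatic 0.36 and FastQC 0.11.3, and the builds mm9 and hg19. The authors deposited a score with each peak, lowest at 537 for GS and 538 for NT and highest at 1000 for both. The sources used here do not state how the score or the states were made, or how reads with several matches were handled.

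Peaks were assigned to windows of 10 kb by their midpoint, and overlap meant at least 1 shared base. Bins of 200 bp were compared between segmentations, with all coordinates in mm9 counted from 1. Shares carry Wilson 95% intervals. Promoter identity was 1 minus the edit distance over the length of the longer sequence, from a global alignment with edlib 1.3.9.post1. Other work used Python 3.11.15, NumPy 2.4.6, SciPy 1.17.1 and Matplotlib 3.10.9, and the functions were tested on simulated data. There were no tests, since each treatment or condition has 1 file.

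Named were every NT peak, the GS peaks with the top score, the longest and shortest GS peaks, those overlapping an NT peak, the fullest windows, the longest empty run, the longest marked segments and, for each pair of segmentations, the windows of largest gain and loss. The region and these rules were chosen with earlier results of these data known. Alternatives changed the overlap, score and width limits, window and bin size, the states counted as marked, and the ends of the region.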

Additional observations from a re-analysis of the deposited data

Results flagged for a closer look

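In the region, the length in U3 differed in opposite directions between GS and NT in the 2 genotypes: GS minus NT was -2.2 kb in KO cells and 2 kb in WT cells, and the difference between them was not tested. The signs were the same over the genome, with -14359 kb in KO cells and 14327 kb in WT cells, and without the first and last 100 kb of the region the values were 0.4 kb in KO cells and 0 kb in WT cells. For the same state KO minus WT was -1.4 kb in GS cells and 2.8 kb in NT cells, opposite in sign and not tested. Over the genome both values were positive, 2020.4 kb in GS cells and 30706 kb in NT cells, and without the ends of the region they were 0 kb in GS cells and -0.4 kb in NT cells. For U4, GS minus NT was 0.6 kb in KO cells and -0.6 kb in WT cells, not tested either. Over the genome it was 21643 kb in KO cells and -10152 kb in WT cells, and without the ends of the region U4 covered 0 kb in all 4 segmentations. The opposite signs in the region thus rest on its first 100 kb. All of these values come from the same 4 segmentations, so they are not separate observations.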

How the results depend on the processing

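Of 60 alternative values for 19 results, 40 stayed within the limits set for them and 20 moved. These are counts, shares, a median width and a median spacing, none of them signed; the marked length in KO-NT minus WT-NT, not among them, was -5.2 kb over the whole region and 3.2 kb without its ends. With peaks over 5 kb left out the region held 4 GS peaks in place of 9, and with any overlap counted 14 windows held a GS peak in place of 7. With U2 alone counted, the marked share was 0.55% in KO-GS, 0.258% in KO-NT, 1.03% in WT-GS and 0.533% in WT-NT, and with U3 and U4 alone it was 0.225%, 0.292%, 0.292% and 0.233%. Without the first and last 100 kb it was 0.3%, 0.164%, 0.482% and 0.0182%. The share of bins that differed in state, a setting added after seeing the data, was then 0.464% for WT-GS against WT-NT, 0.3% for KO-GS against KO-NT, 0.745% for KO-GS against WT-GS and 0.182% for KO-NT against WT-NT. With marked and unmarked as the only states it was 0.758% for WT-GS against WT-NT and 1.07% for KO-GS against WT-GS.

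The first 100 kb held most marked bins in each segmentation. The direction of the other moves was fixed by the settings. Counting fewer states or leaving out wide peaks can only lower a value, and counting any overlap can only raise the number of windows. No paired analysis was possible because each list and segmentation stands for both replicates, and for the same reason leaving out a replicate was not run. Depth is unknown, so an absent peak or an unmarked bin cannot be told apart from low coverage.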

Other observations

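The autosomal stretch most like the region by its long GS peaks, chosen after the values were seen, lies on chromosome 7 from 5700001 to 12900000. Its length is 7.2 Mb, against 2.4 Mb for the region. It held 70 GS peaks, or 9.72 per Mb, with a median width of 2356.5 bp and a widest of 6181 bp, and 12 of them were at least as long as the narrowest GS peak of the chromosome 4 region. None had the score of 1000, the highest being 992, and it held 0 NT peaks. Its marked share was 1.08% in KO-GS, 0.478% in KO-NT, 1.18% in WT-GS and 0.861% in WT-NT. Within it, the 2.4 Mb from 8100001 to 10500000 held 35 GS peaks covering 95.86 kb, 8 of them of at least 3787 bp. This part was marked over 0% of bins in all 4 segmentations. Long GS peaks in nearly unmarked chromatin were thus found there too, without the top scores and NT peaks of the chromosome 4 region. More widely, 103 other stretches of 2.4 Mb were marked over less than 5% of bins in all 4 segmentations, and they held 0 to 35 GS peaks with a median of 3 and a median covered length of 3.53 kb.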
